A study of Mus musculus with 14 samples.

Results

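Goblet cells are the mucus-secreting cells of the intestinal lining, and 9 genes linked to how they form and secrete were followed here over all 14 arrays of the series (Affymetrix Mouse Gene ST 1.1, 1 array a sample, so that the number of arrays limits the precision). Each was read from the probe set that the platform annotation assigns to its symbol, so that 9 of the 18820 genes measured are described. They are the fate factors Atoh1 and Spdef, the secreted products Reg4, Zg16, Spink4 and Clca1, the folding factor Agr2, the granule protein Sytl2, and Bcas1, first described as amplified in breast cancer. Each gene had 1 probe set.

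The arrays held RNA from mouse cultures of the genotype Cdx2-/fl with the Lgr5-EGFP allele, on which the Cre that removes the floxed Cdx2 copy is also carried, so that Cre acts in Lgr5-positive cells. Sorted stem cells (SCs) with high EGFP came from clonal organoids. They were control SI SCs from the small intestine (n = 3), control Sto SCs from the stomach (n = 2), both Cdx2-/fl and not given 4-hydroxytamoxifen, and Cdx2null SI SCs (n = 2), in which 4-hydroxytamoxifen had removed the remaining Cdx2 copy. The labels place these clonal cultures in gastric medium (Sto medium, which adds Wnt3a, Fgf10 and gastrin to EGF, Noggin and R-spondin). Whole Cdx2-/fl organoids, unsorted and without 4-hydroxytamoxifen, made up the other 7 arrays. SI organoids (n = 3) and Sto organoids (n = 2) were grown in the simpler SI medium, without those additions, and 1 array of each origin came from Sto medium. According to the paper, SI medium lets Sto organoids differentiate, while SI cultures can be kept growing in it. By the sample titles all groups lack at least 1 Cdx2 copy, so no group is wild type for Cdx2. The paper, however, calls the organoids of its array comparison of media wild type. The donors were adult mice of both sexes, and neither the age of each nor the number of animals behind a group is given in the sources used here. P-values therefore measure the spread between these cultures, which may come from few animals.

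Secretory cells of the gut arise from stem cells in which Notch signalling is low. Atoh1, a basic helix-loop-helix factor, commits cells to the secretory lineages, and Spdef, an ETS factor that acts after it, drives the maturation of goblet and Paneth cells. Mature goblet cells fill granules with mucins and small proteins: Zg16 is a lectin of the mucus that binds bacterial cell walls, Clca1 a mucus metalloprotease, Spink4 a Kazal-type peptide and Reg4 a secreted lectin-like peptide that also marks other deep crypt secretory cells. Agr2 is a protein disulfide isomerase of the endoplasmic reticulum needed for mucin folding, and Sytl2 is a Rab27 effector at secretory granules. Mucous cells of the stomach share part of this machinery, Spdef and Agr2 included. In these samples a higher level of RNA per cell cannot be told apart from more cells of a type.

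The RefSeq promoter table (GRCm38.p6) held 4 of the 9 genes, and their start-site windows are shown because they include both a gene that fell in Cdx2null SI SCs (Reg4) and one that rose (Spdef). Each window runs from 250 bases before to 50 bases after the start, and capitals mark the core letters bound by Cdx factors, TTTAT or its reverse ATAAA, searched on both strands. Reg4 lies at chr3:98221906-98222205 on the plus strand, Atoh1 at chr6:64728875-64729174 on the plus strand, Spdef at chr17:27728902-27729201 on the minus strand and Agr2 at chr12:35992675-35992974 on the plus strand. The Spdef window lies inside the annotated gene (chr17:27714446-27731003), so its start is not the outermost start of that gene.
Reg4: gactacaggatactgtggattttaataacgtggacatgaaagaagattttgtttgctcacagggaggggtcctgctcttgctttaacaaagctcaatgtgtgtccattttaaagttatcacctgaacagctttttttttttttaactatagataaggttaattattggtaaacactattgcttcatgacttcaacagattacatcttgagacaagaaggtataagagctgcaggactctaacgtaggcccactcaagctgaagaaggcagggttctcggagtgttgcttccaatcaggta
Atoh1: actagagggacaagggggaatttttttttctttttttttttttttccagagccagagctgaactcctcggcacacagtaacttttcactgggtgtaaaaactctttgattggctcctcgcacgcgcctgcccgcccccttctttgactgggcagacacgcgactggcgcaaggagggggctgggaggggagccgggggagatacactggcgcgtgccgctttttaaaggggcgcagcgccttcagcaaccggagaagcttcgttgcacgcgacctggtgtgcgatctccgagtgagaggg
Spdef: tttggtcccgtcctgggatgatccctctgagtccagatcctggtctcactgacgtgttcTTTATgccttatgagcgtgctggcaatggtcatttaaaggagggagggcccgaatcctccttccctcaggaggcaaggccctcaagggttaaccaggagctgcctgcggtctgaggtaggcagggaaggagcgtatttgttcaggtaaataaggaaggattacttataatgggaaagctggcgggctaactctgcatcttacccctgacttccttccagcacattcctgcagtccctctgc
Agr2: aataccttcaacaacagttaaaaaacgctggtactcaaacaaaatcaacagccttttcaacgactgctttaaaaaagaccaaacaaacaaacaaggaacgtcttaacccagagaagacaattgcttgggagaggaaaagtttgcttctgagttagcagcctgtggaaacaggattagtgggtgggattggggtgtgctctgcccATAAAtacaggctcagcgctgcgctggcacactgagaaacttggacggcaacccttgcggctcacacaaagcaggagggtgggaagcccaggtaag
These letters occurred in the windows of Spdef (1 match, starting at -191 from the start) and Agr2 (1 match, at -46), and no match was found in those of Reg4 and Atoh1. Of 32851 promoter windows of this length in the table, 40.01% held at least 1 match. Zg16, Spink4, Clca1, Sytl2 and Bcas1 are named only.

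Values are log2 expression levels. Cdx2 was between 8.94 and 10.05 in control SI SCs, at 5.08 and 4.67 in control Sto SCs, and at 8.41 and 4.88 in the libraries labelled Cdx2null SI SCs 1 and 2. Its probes also cover exons that the recombination leaves in place, so Cdx2 is no direct test of the genotype. The libraries labelled Cdx2null SI SCs differed from each other in Cdx2 and also in the intestinal cadherin Cdh17, at 8.44 and 6.04 against at least 11.09 in control SI SCs, and calls that changed without either of them are given after the SC comparisons. Both were read with the same probe sets, and the cause of their difference was not tested. Lgr5 was between 10.77 and 11.56 on all 7 SC arrays. The library labelled SI organoids in SI medium 1 goes against its label, with Cdx2 at 5.52 against 9.92 and 9.67 on arrays 2 and 3, and with the gastric trefoil peptide Tff2 at 11.39 against 8.80 and 5.78. Tests between groups that include it are given with and without it, and values and ranges over all 14 arrays include it. The third control SI SC array and array 3 of the SI organoids in SI medium had been exported in a different way, from rounded linear signals. Calls required at least a 2-fold difference and an adjusted p under 0.05. Centring each array on its median moved the median difference of all genes from 0.03 to -0.12 for Cdx2null against control SI SCs, from 0.03 to -0.17 for control Sto against control SI SCs, from 0.0048 to -0.14 for the medium, from -0.0098 to -0.30 for Sto SCs against Sto organoids and from -0.0034 to -0.28 for the contrast of origin effects. The share of higher genes among all called genes was 61% for Cdx2null against control SI SCs and 50% after centring, and 68%, 52.6% after centring and 56.5% after quantile normalisation for control Sto against control SI SCs. It was 37.2% and 49.8% for the organoids of different origin, 61.9% and 35% for Sto SCs against Sto organoids, and 56.6% and 36.6% for the contrast of origin effects. No called difference of a member changed sign under either rescaling.

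The members differed widely in how much they varied. Over the 14 arrays Clca1 ranged over 9.07 on the log2 scale, Zg16 over 8.21 and Reg4 over 8.15, against a median range of 1.02 over all genes. Spink4 (5.81), Sytl2 (5.70), Atoh1 (5.25) and Bcas1 (4.68) ranged less, and Spdef (2.65) and Agr2 (2.09) least. Agr2 lay between the 94.95th and the 99.9th percentile of genes on every array. Spdef, Bcas1 and Spink4 were above the array's median gene on all arrays too, whereas Atoh1 lay below it on 10 arrays, Zg16 on 9, Reg4 and Sytl2 on 8 each and Clca1 on 5.

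**Figure D1:**
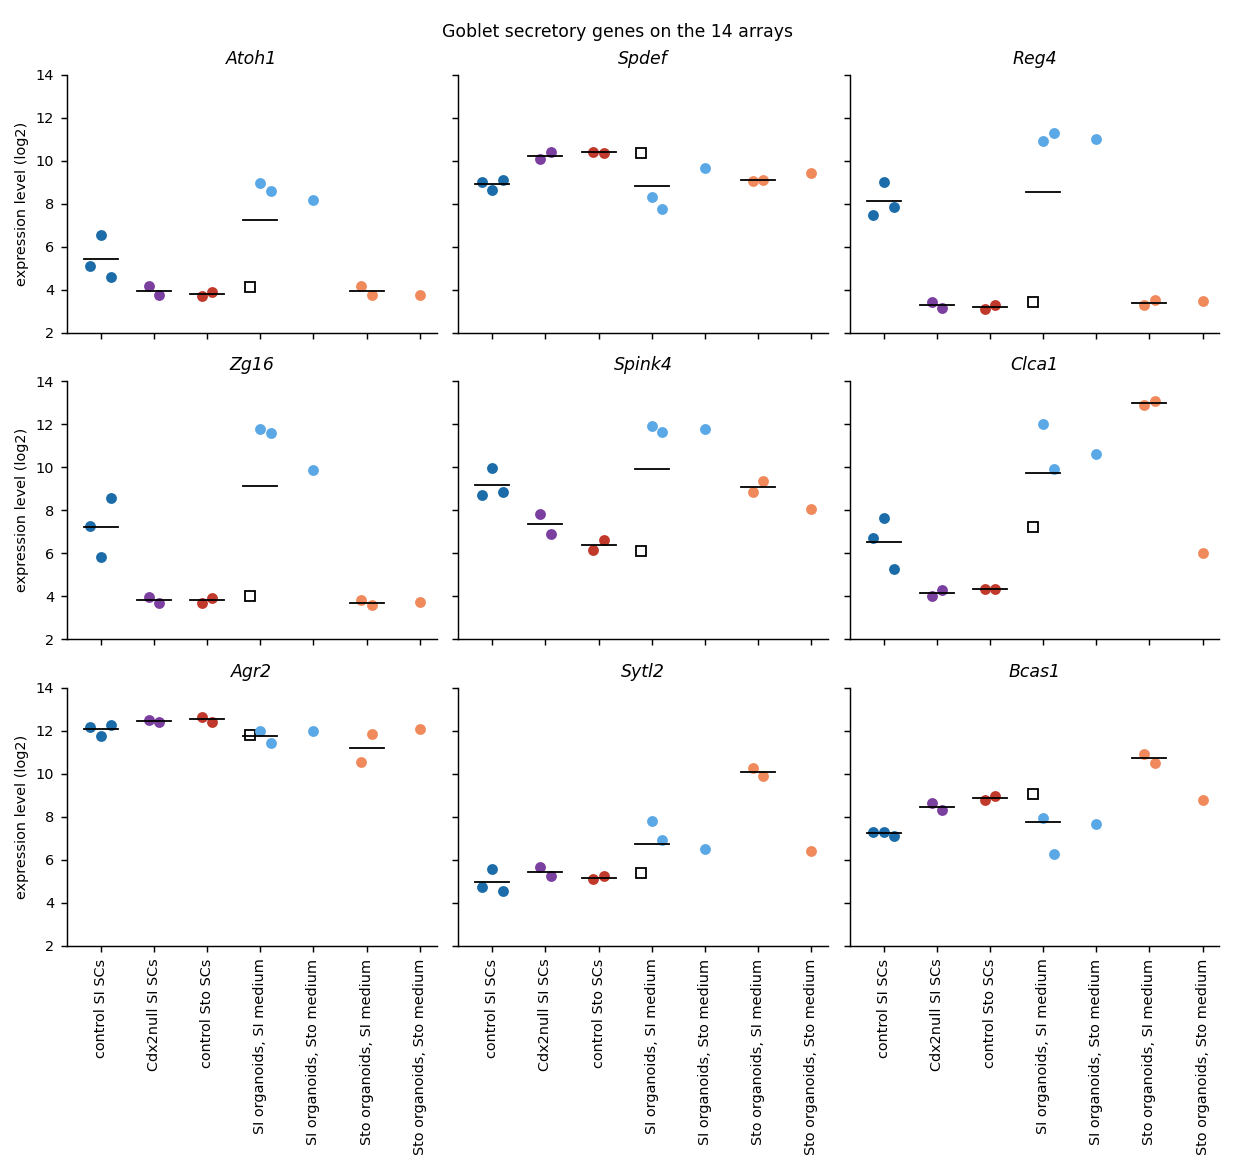
Log2 expression level (y axis) of the 9 genes on the 14 arrays in 7 groups (x axis). Each point is 1 array, black lines are means of groups with over 1 array, and the open square is the library labelled SI organoids in SI medium 1, which is included in its group's mean. Reg4 and Zg16 are at least 5.83 in control SI SCs and at most 3.96 in Cdx2null and control Sto SCs, and Clca1 and Sytl2 are highest in Sto organoids in SI medium.

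Loss of Cdx2 from the stem cells was addressed by setting Cdx2null SI SCs against control SI SCs. In Cdx2null SI SCs 1 member fell, the secreted peptide Reg4 (log2 difference -4.82), and 2 rose, the goblet factor Spdef (2.46-fold) and Bcas1 (2.36-fold). The other 6 were not called, although 7 of 9 passed an unadjusted p under 0.05. Over all genes 0.93% were called higher and 0.595% lower. The median difference of the members was -1.46 on the log2 scale, and that of all genes 0.03. In control Sto SCs Spdef and Bcas1 were higher than in control SI SCs, and Reg4, Spink4 and Zg16 lower (5 of 9 called, against 1.94% of all genes called higher and 0.914% lower). Both comparisons use the same control SI SC arrays, so their values are not independent of each other.

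Of the fate factors Spdef alone was called. Spdef was at 9.02, 8.64 and 9.11 in control SI SCs, at 10.06 and 10.38 in Cdx2null SI SCs and at 10.40 and 10.36 in control Sto SCs. No Cdx2null or Sto array overlapped the control SI SCs. The log2 difference from control SI SCs was 1.30 (SE 0.19, adjusted p = 0.0229) for Cdx2null SI SCs and 1.46 (SE 0.19, adjusted p = 0.0116) for control Sto SCs. Atoh1 was at 5.10, 6.53 and 4.58 in control SI SCs, at 4.15 and 3.74 in Cdx2null SI SCs and at 3.72 and 3.87 in control Sto SCs. All 7 values of Atoh1 but that of control SI SCs 2 lay below the median gene of their array. Its log2 differences of -1.46 (SE 0.52, adjusted p = 0.315) and -1.61 (SE 0.52, adjusted p = 0.18) were not called. By their Xist level, control SI SCs 1 and 3 are male and all other SC arrays female, so that sex is partly confounded with both comparisons. Only the control SI SCs hold both sexes, so with sex as a term both comparisons reduce to control SI SCs 2 as the control. The Atoh1 differences from that array were -2.59 and -2.74. Bcas1 in Cdx2null SI SCs (1.19) and Zg16 in control Sto SCs (-2.03) then fell short of a call. With 1 control array behind them, these values cannot separate sex from the spread between cultures.

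Of the secreted products, Reg4 separated the groups most. Reg4 was at 7.48, 8.99 and 7.84 in control SI SCs, at 3.41 and 3.15 in Cdx2null SI SCs and at 3.11 and 3.30 in control Sto SCs. The latter 4 arrays had Reg4 at or under the 17.9th percentile of genes, and the control SI SCs at or above the 64.2th. No detection call is used here, so signals this low may not be above background, and no fold is given for them. The log2 difference was -4.82 (SE 0.41, adjusted p = 0.00369) for Cdx2null SI SCs and -4.90 (SE 0.41, adjusted p = 0.00264) for control Sto SCs. Reg4 was the one secreted product called in the Cdx2null SI SCs.

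Zg16, the mucus lectin, was at 7.26, 5.83 and 8.55 in control SI SCs, at 3.96 and 3.68 in Cdx2null SI SCs and at 3.70 and 3.91 in control Sto SCs. The groups did not overlap, but the control SI SCs were widely spread (7.21 ± 1.36, SD, n = 3). Its log2 difference was -3.41 in control Sto SCs (SE 0.68, adjusted p = 0.048, called) and -3.40 in Cdx2null SI SCs (SE 0.68, adjusted p = 0.075, not called). Spink4 was at 8.72, 9.95 and 8.86 in control SI SCs, at 7.81 and 6.87 in Cdx2null SI SCs and at 6.13 and 6.59 in control Sto SCs. The Cdx2null arrays thus lay between the control groups. Spink4 was lower in control Sto SCs (log2 difference -2.81, SE 0.43, adjusted p = 0.0207), and its difference in Cdx2null SI SCs was -1.84 (SE 0.43, adjusted p = 0.122). Clca1, the mucus protease, was at 6.70, 7.64 and 5.24 in control SI SCs, at 4.00 and 4.27 in Cdx2null SI SCs and at 4.35 and 4.34 in control Sto SCs. The 3 control SI arrays were the higher ones, with differences of -2.39 (SE 0.61, adjusted p = 0.15) and -2.18 (SE 0.61, adjusted p = 0.124) that were not called.

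Bcas1 was at 7.30, 7.29 and 7.12 in control SI SCs, at 8.65 and 8.30 in Cdx2null SI SCs and at 8.78 and 8.96 in control Sto SCs. The control SI arrays were the lowest and the groups did not overlap, and the log2 difference was 1.24 (SE 0.16, adjusted p = 0.0151) for Cdx2null SI SCs and 1.64 (SE 0.16, adjusted p = 0.00464) for control Sto SCs. Agr2, the mucin isomerase, was among the most highly expressed genes in every group, at 12.17, 11.74 and 12.29 in control SI SCs, 12.50 and 12.43 in Cdx2null SI SCs and 12.65 and 12.40 in control Sto SCs. Its differences of 0.40 (SE 0.20, adjusted p = 0.531) and 0.46 (SE 0.20, adjusted p = 0.333) were not called, and the 95% interval in Cdx2null SI SCs ran from -0.07 to 0.87. Sytl2, the granule effector, was between 4.56 and 5.65 on all 7 SC arrays, and its groups overlapped. Its log2 difference was 0.50 (SE 0.31) in Cdx2null SI SCs and 0.23 (SE 0.31) in control Sto SCs, neither called.

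**Figure D2:**
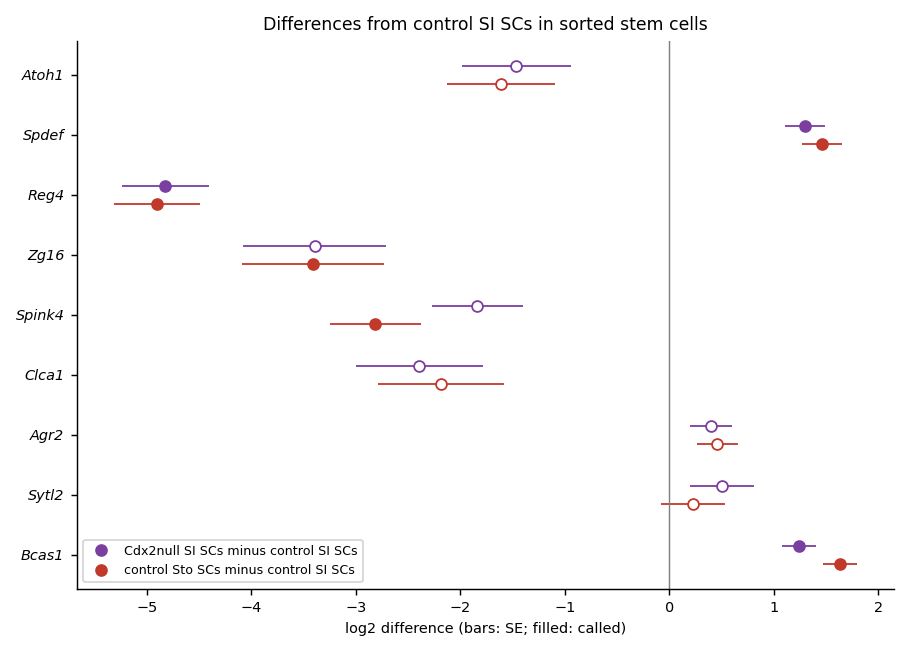
Log2 difference from control SI SCs (x axis) of the 9 genes (y axis) in Cdx2null SI SCs (purple) and control Sto SCs (red). Points are limma estimates with SE bars and filled points are called. Spdef and Bcas1 lie between 1.24 and 1.64 and Reg4 at -4.82 and -4.90 in both comparisons.

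Reg4 in both comparisons and Bcas1 in control Sto SCs were called whichever array of the compared groups was left out. The other calls were lost without some arrays, although Spdef kept a log2 difference of 1.14 to 1.46 and Bcas1 of 1.06 to 1.42 in Cdx2null SI SCs, and Spdef of 1.32 to 1.55, Spink4 of -3.04 to -2.42 and Zg16 of -4.10 to -2.74 in control Sto SCs. In Cdx2null SI SCs Bcas1 was not called without control SI SCs 1 (adjusted p = 0.0595) or 3 (0.0522) or without Cdx2null SI SCs 1 (0.0703). Spdef was not called there without control SI SCs 1 (0.0758) or Cdx2null SI SCs 2 (0.173), nor after quantile normalisation (0.0934) or median centring (0.0652). Zg16 passed without control SI SCs 2 (0.0138) and Clca1 without control SI SCs 3 (0.0286), and after centring Spink4, Zg16 and Clca1 were called lower. In control Sto SCs Spdef was not called without Sto array 1 (0.0885) or 2 (0.0812). Spink4 was not called without Sto array 1 (0.137), Sto array 2 (0.0872) or control SI SCs 3 (0.0652). Zg16 was not called without Sto array 1 (0.226), Sto array 2 (0.196) or control SI SCs 1 (0.139) or 3 (0.0644), and Clca1 passed without control SI SCs 3 (0.0257).

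Markers of other intestinal cells differed between the same groups, where 0.93% of all genes were called higher in Cdx2null SI SCs and 0.595% lower. In Cdx2null SI SCs 4 of 6 enterocyte markers and 2 of 6 Paneth markers (Defa24 and Ang4) were called lower, 1 of 4 stem markers (Smoc2) was called lower, and 5 of 5 gastric identity markers, 1 of 5 tuft markers (Dclk1), 1 of 5 neck and pyloric gland markers and 1 of 4 pit markers were called higher. The log2 of the summed signals of a list is set by its strongest genes. For the Paneth list it ran from 13.29 to 13.38 in control SI SCs and from 12.77 to 13.21 in Cdx2null SI SCs. For the enterocyte list it ran from 10.97 to 11.52 and from 10.55 to 10.62. The median gene of the enterocyte list ran from 6.03 to 7.85 in control SI SCs and from 3.98 to 3.99 in Cdx2null SI SCs. That of the Paneth list ran from 6.90 to 8.78 and from 6.34 to 7.85. On Cdx2null SI SCs 1 and 2 Pla2g2a was at 12.71 and 10.55, Mmp7 at 11.31 and 10.82 and Lyz1 at 7.29 and 11.82. Itln1 was at 5.40 and 5.15 there, Ang4 at 4.18 and 4.08 and Defa24 at 2.84 and 3.03. The genes of this list thus did not move together. Of 8 enteroendocrine, 4 mesenchyme and 3 immune markers none was called in either comparison with control SI SCs. The part of other cell types in the members' differences was not tested.

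Cdx2null SI SCs and control Sto SCs were then set against each other. None of the 9 members was called by limma and 0 passed an unadjusted p under 0.05, against 0% of all genes called higher, 0% lower and 286 of 18820 at an unadjusted p under 0.05. Spink4 had the largest difference, 0.98 higher in Cdx2null SI SCs (95% interval -0.15 to 2.10), and its groups did not overlap. Bcas1 was 0.40 lower (log2 difference -0.40, 95% interval -0.82 to 0.03), and its groups did not overlap either, nor did those of Clca1 and Sytl2. For Reg4 the difference was 0.08 (95% interval -0.99 to 1.15), for Spdef -0.16 (-0.65 to 0.33) and for Zg16 0.01 (-1.75 to 1.78). With 2 arrays a group the intervals allow differences of over 2-fold for Atoh1, Spink4, Zg16, Clca1, Reg4 and Sytl2, so these levels are not shown to be equal.

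Other genes of the same pathways were counted in lists of textbook members, drawn up with earlier results of these data known. Some of these and of the marker genes, such as Tff3 and Muc2, are markers that the paper reports from this array study. The counts are therefore no independent support. Of 21 further goblet genes, 1 was called lower in Cdx2null SI SCs, Tff3, the goblet trefoil peptide (log2 difference -3.98, SE 0.28, adjusted p = 0.00181), and none higher. The median of that list was 0.27, against 0.03 over all genes. Of all genes 0.93% were called higher in Cdx2null SI SCs and 0.595% lower, so a single call is no result about the list. In control Sto SCs Tff3 was lower too (-3.89, adjusted p = 0.00158), while Creb3l4 (1.82, adjusted p = 0.0283) and Ern2, the stress sensor of mucous cells (1.60, adjusted p = 0.0416), were higher. The shares of all genes there were 1.94% called higher and 0.914% lower. Muc2, the main goblet mucin, was chosen for mention after its values were seen. It was at 7.64, 8.49 and 7.24 in control SI SCs, at 5.08 and 5.77 in Cdx2null SI SCs and at 4.64 and 6.16 in control Sto SCs, and was not called (adjusted p = 0.103 and 0.0654).

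Of 20 secretory fate genes, only Bhlha15 (Mist1), a factor of secretory cell architecture, was called, at 2.16 (SE 0.33, adjusted p = 0.0281) higher in Cdx2null SI SCs and 3.08 (SE 0.33, adjusted p = 0.00602) higher in control Sto SCs. Of 15 granule release genes 1 was called higher in Cdx2null SI SCs, the granule GTPase Rab3d (1.20, SE 0.18, adjusted p = 0.0275). In control Sto SCs 4 were called higher, namely Rab3d (1.55, adjusted p = 0.00823), Sytl1 (1.92, adjusted p = 0.0308), Rab27a (1.96, adjusted p = 0.0315) and Rab27b (1.03, adjusted p = 0.0456), the last 2 being GTPases that Sytl proteins bind. Of 16 folding genes of the endoplasmic reticulum none was called in Cdx2null SI SCs (median 0.45) and 4 were called higher in control Sto SCs (median 0.59), Dnajb9, Pdia5, Ern2 and Dnajc3. Among 17 relatives of Reg4, Clca1 and Spink4, Clca3b (-4.62, adjusted p = 0.0116) and Reg3b (-3.19, adjusted p = 0.0279) were lower in Cdx2null SI SCs, and Clca3b (-4.98, adjusted p = 0.00664) in control Sto SCs. Calls of list and marker genes in the SC comparisons were not recomputed in the other settings, unlike those of the members.

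Organoids of the 2 origins were compared in SI medium. With all 7 organoid arrays no member was called, against 0.526% of all genes called higher in Sto organoids and 0.887% lower, and 2 members passed an unadjusted p under 0.05, Bcas1 (log2 difference 2.96, SE 0.83) and Sytl2 (3.35, SE 0.72). Without the library labelled SI organoids in SI medium 1, 7 of 9 were called. In Sto organoids Spdef, Bcas1 and Sytl2 were then higher and Atoh1, Spink4, Zg16 and Reg4 lower, while 7.57% of all genes were called higher and 6.29% lower.

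Atoh1 was at 4.13, 8.96 and 8.59 in SI organoids and at 4.15 and 3.73 in Sto organoids. Arrays 2 and 3 of the SI organoids were high and array 1 lay within the range of the Sto organoids. The log2 difference was -3.29 (SE 1.56, adjusted p = 0.391) with all arrays and -4.84 (SE 0.24, adjusted p = 0.00016) without array 1. Spdef was at 10.36, 8.30 and 7.76 in SI organoids and at 9.07 and 9.12 in Sto organoids. Array 1 was the highest and the other SI organoids the lowest, so that the difference was 0.29 (SE 0.81, adjusted p = 0.909) with all arrays and 1.07 (SE 0.24, adjusted p = 0.0335) without array 1.

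The secreted products of the intestine split in the same way. Reg4 was at 3.41, 10.89 and 11.26 in SI organoids and at 3.27 and 3.52 in Sto organoids, and the difference was -5.12 (SE 2.56, adjusted p = 0.417) with all arrays and -7.68 (SE 0.22, adjusted p = 6.14e-05) without array 1. Zg16 was at 4.02, 11.79 and 11.58 and at 3.81 and 3.58, with differences of -5.44 (SE 2.56, adjusted p = 0.387) and -7.99 (SE 0.20, adjusted p = 5.29e-05). On SI organoid arrays 2 and 3 both genes were thus among the most highly expressed (96.9th to 99.3rd percentile), and on the Sto organoid arrays at or below the 25.1th. Spink4 was at 6.12, 11.93 and 11.65 in SI organoids and at 8.82 and 9.37 in Sto organoids. In Sto organoids Spink4 was at the 80.5th percentile or above, and its difference was -0.80 (SE 1.90, adjusted p = 0.89) with all arrays and -2.69 (SE 0.25, adjusted p = 0.00169) without array 1.

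Clca1 ran the other way from the remaining secreted products. It was at 7.21, 12.01 and 9.93 in SI organoids and at 12.91 and 13.07 in Sto organoids, where it was at or above the 99.96th percentile of genes. The groups did not overlap, but the difference was not called with all arrays (3.27, SE 1.39, adjusted p = 0.342) or without array 1 (2.02, SE 0.63, adjusted p = 0.0854). Sytl2 was at 5.40, 7.80 and 6.94 in SI organoids and at 10.26 and 9.87 in Sto organoids, a difference of 3.35 (adjusted p = 0.115) with all arrays and 2.70 (SE 0.33, adjusted p = 0.00435) without array 1. Bcas1 was at 9.06, 7.94 and 6.26 in SI organoids and at 10.94 and 10.50 in Sto organoids, a difference of 2.96 (adjusted p = 0.184) with all arrays and 3.62 (SE 0.53, adjusted p = 0.00815) without array 1. For Sytl2 and Bcas1 every Sto organoid array in SI medium was above every SI organoid array. Agr2 overlapped, at 11.80, 11.98 and 11.44 in SI organoids and at 10.56 and 11.83 in Sto organoids, and was not called (-0.55, SE 0.42, and -0.52, SE 0.44, without array 1).

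**Figure D3:**
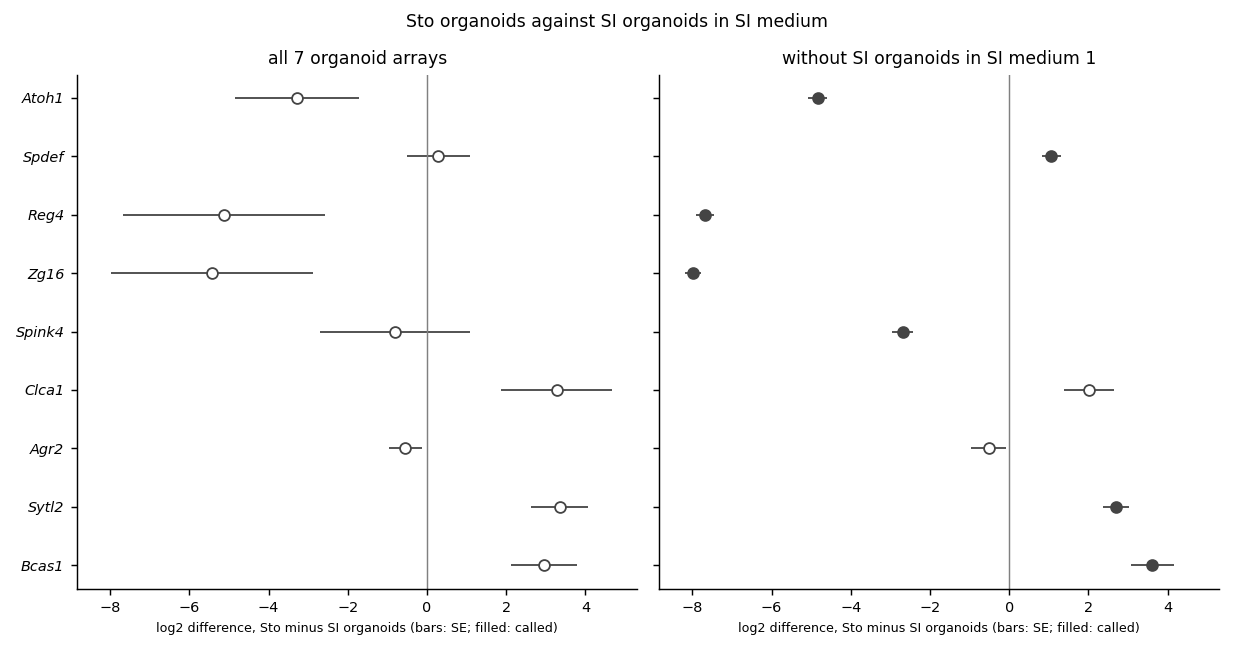
Log2 difference of Sto minus SI organoids in SI medium (x axis) for the 9 genes (y axis), with all 7 organoid arrays in the fit (left) and without the library labelled SI organoids in SI medium 1 (right). Points are limma estimates with SE bars and filled points are called, 0 on the left and 7 on the right.

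Markers of gastric surface cells stood high on the same Sto organoid arrays. The summed log2 level of the 4 gastric pit markers (Gkn1, Gkn2, Tff1, Muc5ac) was 14.50 and 14.55 in Sto organoids in SI medium and at most 9.90 on every other array, and Lgr5 was at 4.20 and 4.32 there against at least 9.29 elsewhere. The 6 Paneth markers summed to at most 6.92 on those arrays and to 9.43 to 12.72 in control Sto SCs. On control Sto SCs 1 and 2 Pla2g2a was at 5.99 and 11.57, Mmp7 at 8.62 and 10.81 and Lyz1 at 5.60 and 10.76. Itln1 was at 7.29 and 7.30 there, Ang4 at 4.47 and 4.25 and Defa24 at 2.70 and 2.94, so that sum does not stand for all Paneth markers. In SI organoids in SI medium the enteroendocrine list summed to between 7.07 and 12.29 and the enterocyte list to between 10.52 and 14.40. The part of these cell types in the members' levels was not tested.

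Without array 1, 9 of the 21 goblet genes were called higher in Sto organoids and 3 lower. Those with the smallest adjusted p were, among the higher, Ern2 (2.18, adjusted p = 0.00245), Klf4 (3.03, adjusted p = 0.0038), the fucosyltransferase Fut2 (3.95, adjusted p = 0.00492) and Foxa1 (2.37, adjusted p = 0.0059), and, among the lower, Muc2 (-7.06, adjusted p = 6.19e-05), Tff3 (-3.83, adjusted p = 0.000206) and Gfi1 (-1.19, adjusted p = 0.0227). With all arrays Klf4 was the only gene called in the goblet and secretory fate lists (2.99, adjusted p = 0.0411), and none of the granule release genes or of the relatives of Reg4, Clca1 and Spink4 was called, so that the other calls of these lists appear only without that array, where 7.57% of all genes were called higher and 6.29% lower. Of the 15 granule release genes 8 were called higher and none lower without array 1, the first being Sytl5 (4.23, adjusted p = 0.00187), Rab3d (1.90, adjusted p = 0.00257), Rab27a (3.58, adjusted p = 0.0041) and Exph5 (1.88, adjusted p = 0.00662). Of the 20 secretory fate genes 1 was higher and 7 were lower, among them the Notch ligand Dll1 (-2.59, adjusted p = 0.0118) and the endocrine factors Neurog3 (-3.32, adjusted p = 0.000403) and Neurod1 (-2.47, adjusted p = 0.000802). Of the 17 relatives of Reg4, Clca1 and Spink4 1 was higher, Clca2 (2.56, adjusted p = 0.0142), and 7 were lower, with Clca3b (-7.86) and Clca4b (-6.57) the largest.

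Culture in Sto medium against SI medium was tested over both origins together, with 1 array of each origin in Sto medium. No member was called, with or without the library labelled SI organoids in SI medium 1, and 0 passed an unadjusted p under 0.05 with all arrays (2 without array 1, Sytl2 and Spdef). Of all genes 0% were called higher in Sto medium and 0% lower with all arrays (1816 at an unadjusted p under 0.05), and 0.00531% and 0.0213% without array 1. The single SI organoid array in Sto medium had Atoh1 at 8.15, Reg4 at 11.02, Zg16 at 9.89 and Spink4 at 11.77, all above every Sto organoid array of either medium. It had Spdef at 9.66, Clca1 at 10.60, Sytl2 at 6.50, Bcas1 at 7.64 and Agr2 at 11.97.

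The single Sto organoid array in Sto medium differed from the arrays in SI medium in Clca1, at 6.02 against 12.91 and 13.07, in Sytl2, at 6.42 against 10.26 and 9.87, and in Bcas1, at 8.79 against 10.94 and 10.50. In each of these genes it lay nearer to the control Sto SCs than to the Sto organoids in SI medium. Reg4 (3.46), Zg16 (3.71) and Atoh1 (3.76) were as low there as in the other stomach samples, Spink4 was at 8.07, Spdef at 9.43 and Agr2 at 12.09. Over both origins the medium difference was -2.82 (SE 1.99) for Clca1 and -1.83 (SE 0.93) for Sytl2 with all arrays, and -3.67 (SE 1.51, adjusted p = 0.336) and -2.26 (SE 0.65, adjusted p = 0.214) without array 1. With 1 array of each origin in Sto medium, the spread within that medium is not known. That Sto organoid array is male and those in SI medium are female, so sex and medium cannot be told apart there.

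Sorted SCs were set against whole organoids of the same origin in SI medium, a contrast in which the sort and the medium change together. The SCs also came from clonal organoids, while the paper grew the organoids of its media comparison from glands and crypts. In the stomach Clca1 was lower in SCs by 8.65 on the log2 scale (log2 difference -8.65, SE 1.25, adjusted p = 0.00393), and Sytl2 by 4.90 (-4.90, SE 0.64, adjusted p = 0.00265). With all arrays these were 2 of 9 members called, against 3.74% of all genes called higher in SCs and 2.3% lower. Without the library labelled SI organoids in SI medium 1, which belongs to neither group but enters the estimate of the spread, 6 were called, and 5.44% and 3.8% of all genes. Spink4 (-2.73, SE 0.44, adjusted p = 0.0037) and Bcas1 (-1.84, SE 0.43, adjusted p = 0.0235) were then also lower in SCs, and Spdef (1.29, SE 0.23, adjusted p = 0.0056) and Agr2 (1.33, SE 0.37, adjusted p = 0.0477) higher. Atoh1, Zg16 and Reg4 were at most 4.15 in all of these stomach samples, and their groups overlapped.

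In the small intestine no member was called with all arrays (0.122% of all genes higher in SCs and 0.0372% lower), and Clca1 (-3.19, SE 1.02) and Sytl2 (-1.77, SE 0.52) passed an unadjusted p under 0.05. Without array 1, 6 of 9 were lower in control SI SCs than in SI organoids, against 2.93% of all genes, and none was higher, against 2.18%. The differences were -4.47 (SE 0.59) for Zg16, -4.44 (SE 0.69) for Clca1, -3.37 (SE 0.47) for Atoh1, -2.97 (SE 0.37) for Reg4, -2.61 (SE 0.40) for Spink4 and -2.43 (SE 0.34) for Sytl2, with adjusted p between 0.00126 and 0.00416. Spdef was 0.90 higher in SCs (SE 0.21, adjusted p = 0.0318), short of 2-fold. Bcas1 (0.14, SE 0.40) and Agr2 (0.36, SE 0.34) were not called. By Xist, control SI SCs 1 and 3 are male and the SI organoids in SI medium female, so sex changes here too.

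**Figure D4:**
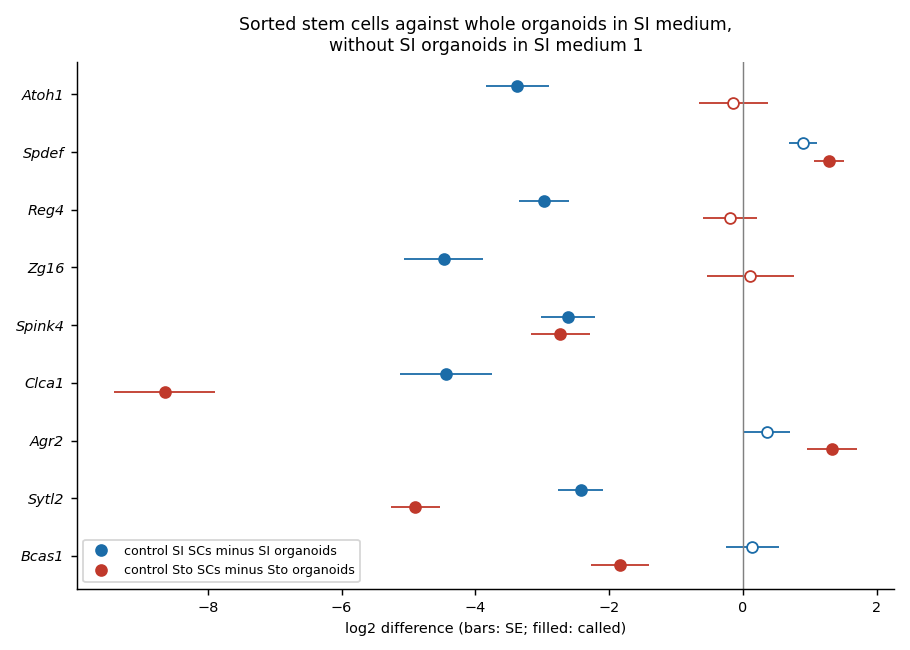
Log2 difference of sorted SCs minus whole organoids in SI medium (x axis) for the 9 genes (y axis), control SI SCs against SI organoids (blue) and control Sto SCs against Sto organoids (red), in the fit without the library labelled SI organoids in SI medium 1. Points are limma estimates with SE bars and filled points are called. Clca1 has the largest stomach difference, -8.65, and Reg4, Zg16 and Atoh1 lie between -0.19 and 0.11 in the stomach and between -4.47 and -2.97 in the intestine.

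Whether the effect of origin differed between SCs and organoids was tested directly, as the Sto minus SI difference in SCs less that in organoids in SI medium. The medium, clonal culture and, in the intestine, sex also differ between its SC and organoid parts. With all arrays no member was called (0.478% of all genes higher, 0.367% lower), and 2 passed an unadjusted p under 0.05, Sytl2 (-3.12, SE 0.82, adjusted p = 0.151) and Clca1 (-5.46, SE 1.61, adjusted p = 0.205). Clca1 was lower in stomach than in intestine among SCs and higher among organoids, on every array of these groups. Without array 1, 4 were called, against 2.88% of all genes higher and 1.66% lower. Zg16 (4.58, SE 0.88, adjusted p = 0.0197), Atoh1 (3.23, SE 0.69, adjusted p = 0.0319) and Reg4 (2.78, SE 0.55, adjusted p = 0.0227) passed, but in both stomach groups these genes were near the lowest signals (stomach differences of -0.19 to 0.11), so that the contrast carries the difference between control SI SCs and SI organoids given above and is no separate result. The Sytl2 difference was -2.47 (SE 0.50, adjusted p = 0.0246). Clca1 was at -4.20 (SE 1.02, adjusted p = 0.0506) there, just short of the threshold.

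Over all 14 arrays the members fell into patterns that can be described by their correlations, in which arrays of 1 group share their culture and are not independent. Atoh1, Reg4, Zg16 and Spink4 followed each other (Pearson r from 0.83 to 0.95 for the 6 pairs). Spdef ran against these, with r from -0.83 to -0.69. Clca1 and Sytl2 went together (r = 0.87), and Agr2 ran against both (r = -0.76 and -0.73). Bcas1 was negatively related to Reg4 (r = -0.75) and Zg16 (r = -0.71) and positively to Sytl2 (r = 0.615). Over the 13 arrays without the library labelled SI organoids in SI medium 1, r was 0.84 to 0.95 within the first 4 genes, -0.81 to -0.69 for Spdef against them and 0.87 for Clca1 with Sytl2.

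The genes most like each member were sought among 9616 genes with a range of at least 1. Zg16 was closest to the alcohol dehydrogenase gene Adh6a (r = 0.991) and to Ang4 (r = 0.962), Reg4 to the Paneth defensin Defa24 and to Ush1c (both r = 0.984), and Atoh1 to Sycn (r = 0.977) and Rnase1 (r = 0.975). Spink4 was closest to Tff3 (r = 0.954) and Esrra (r = 0.950). Bcas1 was closest to Tmem189 (r = 0.986) and Rab27b (r = 0.984), Sytl2 to Klc4 (r = 0.980) and Slc22a4 (r = 0.968), and Clca1 to Ttyh2 (r = 0.957) and Mxd1 (r = 0.953). For Spdef these were Aph1b (r = 0.951) and Selenon (r = 0.935), and for Agr2, with the smallest range, Ifitm2 (r = 0.885) and Setmar (r = 0.882). Without the library labelled SI organoids in SI medium 1 these 18 correlations were between 0.885 and 0.991.

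Ordered by group, Reg4, Zg16 and Atoh1 were highest on SI organoid arrays 2 and 3 and on the SI organoid array in Sto medium, next in control SI SCs, and lowest in the Cdx2null SI SCs and all stomach groups, among which their arrays overlapped. Spdef was highest in control Sto SCs, Cdx2null SI SCs and SI organoid array 1, which overlapped, and lowest on SI organoid arrays 2 and 3. Bcas1 was highest in Sto organoids in SI medium and, apart from SI organoid array 3, lowest in control SI SCs. Clca1 was highest in Sto organoids in SI medium, followed by SI organoid arrays 2 and 3 and the SI organoid array in Sto medium, and lowest in Cdx2null and control Sto SCs. Agr2 was the member with the least spread, between 10.56 and 12.65 in all groups.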

How the data were processed

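RNA from 14 mouse samples had been hybridised to Affymetrix Mouse Gene ST 1.1 arrays. The authors deposited log2 signals per probe set, background-corrected, normalised and summarised by RMA-sketch in Affymetrix Power Tools (version not given in the sources used here). Array 3 of the control SI SCs and array 3 of the SI organoids in SI medium hold log2 values of rounded signals, and whether they were normalised with the others is not stated. Of 35556 probe sets, 21218 had 1 gene symbol in the platform annotation, 1881 several and 12457 none listed. Symbols were updated through Entrez IDs (21185), which gave Clca1, and the probe set with the highest mean stood for each of 18820 genes (1386 had over 1).

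Differences were fitted with limma 3.58.1 in R 4.3.3 over all genes, with Benjamini-Hochberg adjustment. A gene was called at an adjusted p under 0.05 and at least 2-fold. SC comparisons used the 7 SC arrays, organoid comparisons the 7 organoid arrays, and comparisons between SCs and organoids all 14. All were fitted on group means, except that the medium comparison had origin and medium as additive terms. The procedure was tested on simulated data. Alternatives were quantile normalisation, median centring, the mean of probe sets, a filter on low genes and the methods' t-test. Others were leaving out single arrays of the compared groups, a replicate block, all arrays in 1 fit, sex as a term and leaving out the arrays exported differently. Fits without SI organoids in SI medium 1 outside its own comparisons were chosen after seeing the data.

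The members and lists were chosen with earlier results of these data known. Named genes were the members, Cdx2 and Lgr5, the called genes of each list (up to 4 in each direction by adjusted p) and the 2 genes most correlated with each member. Marker genes are named beside results they stand with, and Muc2, Tff2 and Cdh17 were named after their values were seen. Promoters were taken from RefSeq (GRCm38.p6) for 4 of 9 members. Tables were made with Python 3.11.15, numpy 2.4.6 and pandas 2.3.3.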

Additional observations from a re-analysis of the deposited data

How the results depend on the processing

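Over 1044 member differences recomputed in other settings, 0 called differences reversed, 45 lost and 55 gained a call, and 41 that were called in neither setting had the opposite sign. Of 118 recomputed counts of called members, 100 were within 1.5 times the reported count. For Cdx2null against control SI SCs (3 called) the count was 5 after median centring, 0 by the methods' t-test with adjusted p, 0 with all 14 arrays in 1 fit, and 1 to 4 when single arrays were left out. For control Sto against control SI SCs (5 called) it was 3 among genes above the median level, 0 by the adjusted t-test, 0 with all 14 arrays and 2 to 5 without single arrays. For Sto against SI organoids (0 called) it was 1 by the unadjusted t-test, 2 with all 14 arrays, 0 to 7 without single arrays, and 7 in the 13-array fit without SI organoids in SI medium 1. For Sto SCs against Sto organoids (2 called) it was 5 by the unadjusted and 0 by the adjusted t-test, and 2 to 6 without single arrays. It was 0 to 6 for SI SCs against SI organoids and 0 to 4 for the contrast of origin effects, the highest again without SI organoids in SI medium 1. The count of 3 for control Sto SCs among genes above the median level leaves out Reg4 and Zg16, which that filter removed untested. The cause of the other shifts was not tested. Where leaving out an array left 1 in a group, that array was assumed to vary like the other groups.

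With the replicate number as a block, 2 members were called in Cdx2null SI SCs, Reg4 and Clca1 (adjusted p = 0.0231), while Spdef (0.061) and Bcas1 (0.0593) were not. In control Sto SCs 5 were called, with Clca1 (0.0201) in place of Spink4 (0.0599). Same-numbered SC arrays correlated at 0.0716 to 0.404 in their deviations, and SC arrays of other numbers at -0.404 to 0.287. For organoid arrays the values were -0.0577 and -0.0565 with the same number and -0.0410 to 0.0577 with other numbers. The main fits used no block because the methods name no pairing. Whether the numbers pair the SC samples was not tested. Array counts of 1 to 3 a group and genes near the lowest signals (Reg4, Zg16 and Atoh1 in stomach samples) limit the precision.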
